A study of Mus musculus with 8 samples.

Results

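The 9 genes described here encode negative feedback inhibitors of the Ras-ERK kinase cascade, 4 dual-specificity phosphatases (Dusp1, Dusp4, Dusp5 and Dusp6), 3 Sprouty proteins (Spry1, Spry2 and Spry4) and 2 Sprouty-related Spred proteins (Spred1 and Spred2). The rule names them as inhibitors of a pathway that the kinase Pyk2 can feed and uses no measured value, but it was written with earlier results of these data known, so the members are no unselected sample of genes. All 9 of 9 were found among the 55188 genes listed for each library. RNA was sequenced from hippocampus, a region on which contextual fear memory depends, of mice labelled as Pyk2 knockouts (KO) and of wild-type (WT) mice, taken before any fear conditioning. All animals were of the C57BL/6 strain, and the labels call the animals of both groups transgenic. The labels name neither the knockout allele, nor the cells in which it acts, nor the age of the animals. There were 8 libraries, 2 technical replicates of each of 2 numbered KO units (KO1 and KO2) and 2 numbered WT units (WT1 and WT2). Each unit is called an animal below, which gives n = 2 per group. Nothing in the labels states that the units are different mice, so a p-value here reflects the spread between units, which may be technical.

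ERK, the last kinase of the Ras-Raf-MEK-ERK cascade, is activated by growth factors and, in neurons, by calcium entry, and it drives transcription of its own inhibitors. Dusp1, Dusp4 and Dusp5 encode inducible phosphatases of the nucleus, of which Dusp5 acts mainly on ERK while Dusp1 and Dusp4 also act on other MAP kinases. Dusp6 encodes a cytoplasmic phosphatase selective for ERK. Sprouty proteins restrain signalling between growth factor receptors and Raf, and Spred proteins bring the Ras inactivator neurofibromin to the membrane. Pyk2 is a tyrosine kinase that calcium activates and that can couple calcium signals to Ras and ERK.

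The tables hold FPKM, fragment numbers per length of transcript and per library total, each with the authors' confidence interval. The sums of FPKM were 489153 to 502222 in KO libraries and 503579 to 506251 in WT libraries. Read numbers were not used here. If the widths of the deposited intervals came from counting error alone, they would imply 11.3 to 14.1 M fragments in KO libraries and 12.1 to 13.6 M in WT libraries, which are rough figures. Ptk2b, the gene of Pyk2, showed no loss under the KO label and was higher there (log2 fold change 0.335, limma adjusted p = 0.158). It was at 278 and 269 FPKM in KO1 and KO2, against 232 and 202 FPKM in WT1 and WT2. Its level therefore does not check the label, since a value over the whole gene shows neither a lost exon nor lost protein, and every direction below is that of the libraries labelled KO. None of the 8 markers of hippocampal pyramidal and granule neurons was listed at 0 throughout, and they summed to 318 and 282 FPKM in KO1 and KO2, against 286 and 247 FPKM in WT1 and WT2. Markers of several cell types differed along with the labels. The 11 choroid plexus markers summed to 289 and 1237 FPKM in KO1 and KO2, against 4245 and 7498 FPKM in WT1 and WT2, and all 11 were lower in both KO animals than in both WT animals, with none listed at 0 throughout. The 8 neuronal markers summed to 3035 and 2956 FPKM in KO1 and KO2, against 2727 and 2657 FPKM in WT1 and WT2, with 5 of 8 above WT in both KO animals. The 5 blood markers summed to 149 and 158 FPKM in KO1 and KO2, against 287 and 317 FPKM in WT1 and WT2, and all 5 were lower in both KO animals than in both WT animals. The 8 meningeal fibroblast markers summed to 37.7 and 68.0 FPKM in KO1 and KO2, against 109 and 183 FPKM in WT1 and WT2, with 6 of 8 below WT in both KO animals. The 5 ependymal markers summed to 20.9 and 36.8 FPKM in KO1 and KO2, against 54.6 and 46.9 FPKM in WT1 and WT2, with 4 of 5 below. In bulk tissue, fewer cells of a type and less RNA per cell cannot be told apart, and the part of these shifts in the results below was not tested.

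Start regions are shown for the members whose values differ most between the animals labelled KO and WT and for which a sequence was matched (Dusp1, Dusp6 and Spry2), and for Dusp5 as the nuclear phosphatase whose groups overlapped. The RefSeq table (GRCm38.p6) held a window for 7 of the 9 members, from 250 bases before the RefSeq start to 50 after it. GENCODE M21, from which the gene spans below are taken, begins Dusp6, Spry1 and Spry2 at the same base and Dusp5 36 bases away, but its Dusp1 span begins 53656 bases from the RefSeq start, so the Dusp1 window lies inside that span. Dusp4 and Spry4 had no entry. Both strands were searched for the cAMP response element TGACGTCA, its half-site TGACG, the ETS factor site CCGGAAG, the AP-1 site TGANTCA and the CArG box, the site of serum response factor. Capitals mark every match.
Dusp1, chr17:26508423-26508722, minus strand: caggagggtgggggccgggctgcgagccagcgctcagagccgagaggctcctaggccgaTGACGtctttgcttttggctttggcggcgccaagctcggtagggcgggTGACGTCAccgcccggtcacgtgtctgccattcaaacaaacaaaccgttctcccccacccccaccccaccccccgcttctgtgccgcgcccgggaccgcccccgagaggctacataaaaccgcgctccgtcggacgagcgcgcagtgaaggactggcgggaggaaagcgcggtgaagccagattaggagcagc
Dusp5, chr19:53528895-53529194, plus strand: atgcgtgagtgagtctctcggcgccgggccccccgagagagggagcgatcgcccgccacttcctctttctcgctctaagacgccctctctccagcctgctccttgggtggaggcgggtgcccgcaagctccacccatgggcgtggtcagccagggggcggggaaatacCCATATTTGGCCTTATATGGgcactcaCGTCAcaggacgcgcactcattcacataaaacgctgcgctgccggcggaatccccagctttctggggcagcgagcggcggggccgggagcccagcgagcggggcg
Dusp6, chr10:99262981-99263280, plus strand: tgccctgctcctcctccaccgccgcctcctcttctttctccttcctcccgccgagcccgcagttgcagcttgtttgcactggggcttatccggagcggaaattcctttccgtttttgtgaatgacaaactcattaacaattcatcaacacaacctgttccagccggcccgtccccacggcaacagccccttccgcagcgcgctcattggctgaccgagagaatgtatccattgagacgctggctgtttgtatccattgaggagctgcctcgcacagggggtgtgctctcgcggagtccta
Spry2, chr14:105896770-105897069, minus strand: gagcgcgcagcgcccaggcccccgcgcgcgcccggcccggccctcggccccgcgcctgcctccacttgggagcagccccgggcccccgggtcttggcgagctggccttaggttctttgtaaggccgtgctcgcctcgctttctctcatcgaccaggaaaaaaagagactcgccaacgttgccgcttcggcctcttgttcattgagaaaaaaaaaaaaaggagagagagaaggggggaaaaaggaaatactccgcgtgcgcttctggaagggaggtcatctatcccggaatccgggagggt
In the Dusp1 window the full cAMP response element began at base -143, counted from the RefSeq start with no base 0, and 2 half-sites lie within it, 1 on each strand. A further half-site began at -191. In the Dusp5 window 2 adjacent CArG boxes began at -82 and -72 and a half-site began at -55. Of all 32851 windows in the table, 1.79% hold the full element, 20.8% the half-site and 1.63% a CArG box. The Dusp6 and Spry2 windows held none of the 5 patterns, which says only that these letters are absent from these bases. The Spred2 window held a half-site at -51, and the Spry1 and Spred1 windows held none of the 5 patterns. The ETS and AP-1 sites, held by 8.86% and 7.81% of all windows, were in none of the 7 member windows.

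Dusp6 and Spred2 were the most abundant of the 9 transcripts, and Spry1 and Spry4 the least. As FPKM, which can be compared between genes per length, the levels averaged over the 4 animals were 30.4 for Dusp6, 27.7 for Spred2, 18.7 for Spred1, 14.8 for Spry2, 13.1 for Dusp1, 12.4 for Dusp5, 9.09 for Dusp4, 4.26 for Spry1 and 3.62 for Spry4. The ranges of the 4 animals overlapped between Dusp6 and Spred2, between Spry2 and Dusp1, between Dusp1 and Dusp5, and between Spry1 and Spry4, while the other neighbours in this order did not overlap. Within animals Spry2 was above Dusp1 in 4 of 4, Dusp6 above Spred2 in 3 of 4, Spry1 above Spry4 in 3 of 4 and Dusp1 above Dusp5 in 2 of 4. All 9 members passed the minimum of 0.5 FPKM in 2 animals, and all 72 member values had the status OK.

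The precision of single values was set by the deposited intervals, which reached from 4.14% to 11.9% above the value over the 72 member values. The 2 technical replicates of an animal had overlapping intervals in 34 of 36 pairs of a member and an animal, with a median difference of 3.89%. The exceptions were Dusp1 in WT1, with replicates 17.0% apart, and Spry4 in KO2, with replicates 15.6% apart.

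**Figure D1:**
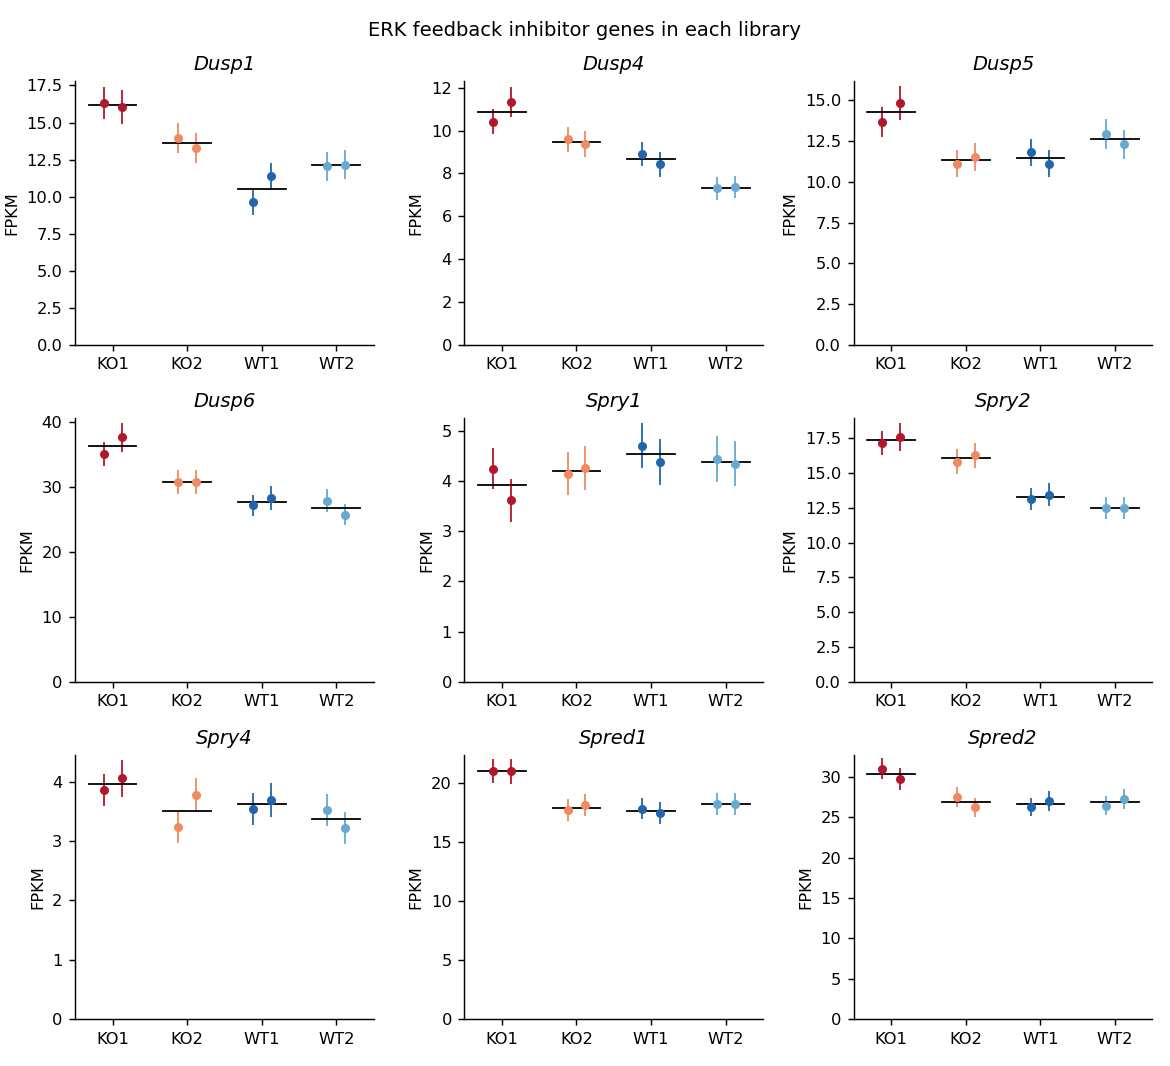
FPKM of the 9 genes in each library, with the 2 technical replicates of each animal side by side, the deposited confidence interval as a vertical line and the mean of each animal as a black bar. KO1 is the highest animal in every panel except that of Spry1, and the Spry2 panel shows 4 KO libraries whose intervals lie above those of the 4 WT libraries.

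Dusp1, Dusp4, Dusp6 and Spry2 were higher in all 4 libraries labelled KO than in all 4 WT libraries, by 23.1% to 31.8% in mean FPKM, but none of the 9 members passed the threshold of an adjusted p under 0.05. Spry1 was lower in all 4 libraries labelled KO, with a change in mean FPKM of -8.98%, and Dusp5, Spry4, Spred1 and Spred2 overlapped between libraries of the groups. Among the 16667 tested genes, limma with Benjamini-Hochberg adjustment called 0.054%, all of them lower in the animals labelled KO, so 0 of 9 members is close to that background. At an unadjusted p under 0.05 there were 4 members, all higher, where 15.5% of all tested genes were at that level, 4.11% higher and 11.4% lower. This balance depends on the scaling, since 26.4% of the genes at that level were higher in the animals labelled KO as deposited, 45.8% after median-of-ratios scaling and 46.7% after quantile normalization. All 4 KO libraries lay above all 4 WT libraries in 7.11% of tested genes, and below them in 13%. With 2 animals against 2, an exact two-sided permutation test cannot give a p below 0.333.

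Among the nuclear phosphatases Dusp1 and Dusp4 were higher in the animals labelled KO and Dusp5 was not separated. Dusp1, an early response phosphatase (ENSMUSG00000024190, chromosome 17, 26505590 to 26562128 in mm10, minus strand), was at 16.3 and 16.0 FPKM in KO1 and 14.0 and 13.2 FPKM in KO2, against 9.60 and 11.4 FPKM in WT1 and 12.1 and 12.1 FPKM in WT2. Every KO library lay above every WT library, although the deposited intervals of the nearest libraries overlapped. The animal means were 14.9 ± 1.81 FPKM in KO and 11.3 ± 1.13 FPKM in WT (SD, n = 2 each), which is a log2 fold change of 0.37 on the log2(FPKM + 1) scale with a standard error (SE) of 0.11, a 95% interval of 0.10 to 0.64 and a limma adjusted p of 0.231. The annotated span of Dusp1 shares 11 exonic bases with Ergic1 on the other strand and holds 3 further genes without exonic overlap, and the strand setting of the libraries is not given.

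Dusp4 (ENSMUSG00000031530, chromosome 8, 34807297 to 34819894, plus strand) was at 10.4 and 11.4 FPKM in KO1 and 9.59 and 9.36 FPKM in KO2, against 8.92 and 8.43 FPKM in WT1 and 7.30 and 7.36 FPKM in WT2. The groups did not overlap, but animals within each group differed, with KO1 above KO2 by 0.18 and WT1 above WT2 by 0.22 in log2(FPKM + 1). Dusp4 averaged 10.2 ± 0.996 FPKM in KO and 8.003 ± 0.948 FPKM in WT (SD, n = 2 each), giving 0.31 as the log2 fold change (SE 0.10, 95% interval 0.05 to 0.58, limma adjusted p = 0.266), and 0.21 without WT2.

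Dusp5, the phosphatase most restricted to ERK (ENSMUSG00000034765, chromosome 19, 53529109 to 53542431, plus strand), was at 13.7 and 14.9 FPKM in KO1 and 11.1 and 11.5 FPKM in KO2, against 11.8 and 11.1 FPKM in WT1 and 12.9 and 12.3 FPKM in WT2. KO1 alone was high, and KO2 lay below the mean of either WT animal. The log2 fold change was 0.07 (SE 0.12, 95% interval -0.22 to 0.37, limma adjusted p = 0.802), and without KO1 it was -0.08. An antisense gene shares 547 exonic bases with Dusp5 and averaged 0.354 FPKM, and whether the counting separated the strands is not given in the sources used here, so the Dusp5 values are uncertain to that extent.

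Dusp6, the cytoplasmic ERK phosphatase and the most abundant member (ENSMUSG00000019960, chromosome 10, 99263231 to 99267489, plus strand), was at 35.1 and 37.7 FPKM in KO1 and 30.8 and 30.7 FPKM in KO2, against 27.2 and 28.3 FPKM in WT1 and 27.9 and 25.7 FPKM in WT2. The WT libraries lay close together and below every KO library, and KO2 lay nearer to them than KO1. Dusp6 averaged 33.6 ± 3.96 FPKM in KO and 27.3 ± 0.669 FPKM in WT (SD, n = 2 each), giving 0.29 as the log2 fold change (SE 0.08, 95% interval 0.07 to 0.50, limma adjusted p = 0.238), and 0.17 without KO1.

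The Sprouty genes did not share a direction. Spry2 (ENSMUSG00000022114, chromosome 14, 105891947 to 105896819, minus strand) was at 17.1 and 17.6 FPKM in KO1 and 15.8 and 16.3 FPKM in KO2, against 13.1 and 13.4 FPKM in WT1 and 12.5 and 12.5 FPKM in WT2. The deposited intervals of the 4 KO libraries lay wholly above those of the 4 WT libraries, which held for 1 of 9 members and for 0.372% of tested genes, while the reverse held for 0 members and 1.93% of tested genes. Spry2 averaged 16.7 ± 0.936 FPKM in KO and 12.9 ± 0.577 FPKM in WT (SD, n = 2 each), giving 0.35 as the log2 fold change (SE 0.06, 95% interval 0.19 to 0.51). Its adjusted p of 0.117 in limma was the smallest of the 9 and did not pass, and it ranked 352 by p among all tested genes.

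Spry1 (ENSMUSG00000037211, chromosome 3, 37639947 to 37644598, plus strand) was at 4.24 and 3.61 FPKM in KO1 and 4.14 and 4.25 FPKM in KO2, against 4.70 and 4.37 FPKM in WT1 and 4.43 and 4.34 FPKM in WT2. It was the only member whose mean was lower in KO than in WT, and the deposited intervals of the groups overlapped. The log2 fold change was -0.11 (SE 0.07, 95% interval -0.29 to 0.07, limma adjusted p = 0.491). A gene on the other strand shares 710 exonic bases with Spry1 and averaged 0.205 FPKM.

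Spry4 (ENSMUSG00000024427, chromosome 18, 38586247 to 38601415, minus strand) was at 3.86 and 4.06 FPKM in KO1 and 3.23 and 3.78 FPKM in KO2, against 3.54 and 3.70 FPKM in WT1 and 3.53 and 3.22 FPKM in WT2. The groups overlapped, with KO2 between the WT animals. The log2 fold change was 0.07 (SE 0.08, 95% interval -0.14 to 0.28, limma adjusted p = 0.717).

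Both Spred genes were high in KO1 alone. Spred1, which is mutated in a human syndrome resembling neurofibromatosis (ENSMUSG00000027351, chromosome 2, 117121374 to 117182279, plus strand), was at 21.0 and 21.0 FPKM in KO1 and 17.7 and 18.1 FPKM in KO2, against 17.8 and 17.4 FPKM in WT1 and 18.2 and 18.2 FPKM in WT2. Spred2 (ENSMUSG00000045671, chromosome 11, 19924375 to 20024026, plus strand) was at 31.1 and 29.7 FPKM in KO1 and 27.5 and 26.3 FPKM in KO2, against 26.3 and 27.0 FPKM in WT1 and 26.5 and 27.3 FPKM in WT2. The libraries of KO2 lay within the WT range for Spred1, and on either side of it by a small margin for Spred2. The log2 fold changes were 0.11 for Spred1 (SE 0.08, 95% interval -0.10 to 0.32, limma adjusted p = 0.573) and 0.09 for Spred2 (SE 0.07, 95% interval -0.08 to 0.26, limma adjusted p = 0.555), and without KO1 they were -0.0004 and 0.0065. By animal means Spred2 also counts as not overlapping, at 26.9 FPKM in KO2 against 26.9 FPKM in WT2, a difference far within the spread of the technical replicates.

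**Figure D2:**
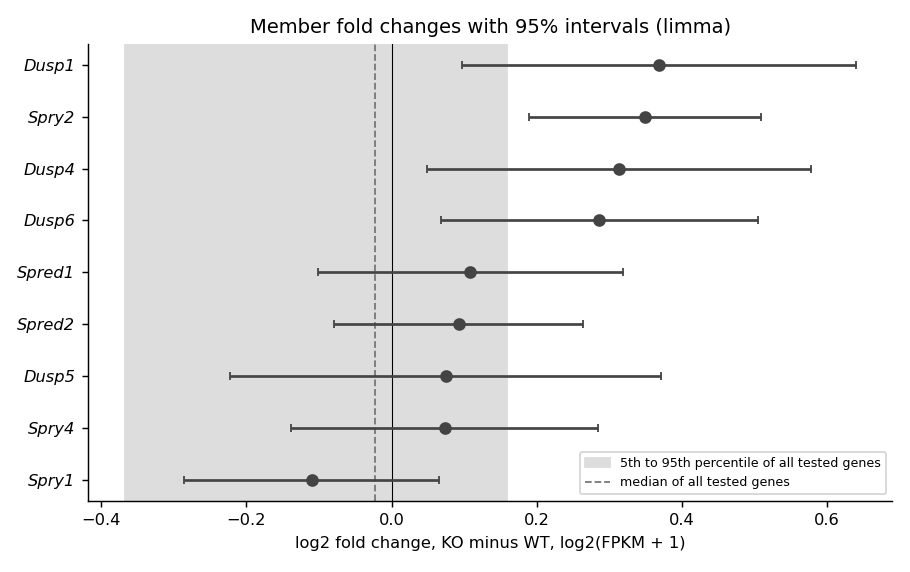
Log2 fold change of each gene, KO minus WT on the log2(FPKM + 1) scale, with limma's 95% interval. The grey band spans the 5th to 95th percentile of all tested genes, -0.37 to 0.16, and the dashed line is their median at -0.02. Dusp1, Spry2, Dusp4 and Dusp6 lie right of the band at 0.29 to 0.37, and the intervals of the other genes include 0.

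The 9 members had a median log2 fold change of 0.11, against -0.02 over all tested genes, and 8 of 9 had a higher mean in the animals labelled KO, where 42% of tested genes did. This median rested largely on KO1. Without KO1 it was 0.0065, against -0.0114 over all tested genes, and 6 of 9 members were higher. Without KO2, WT1 or WT2 it was 0.23, 0.11 and 0.14. By animal means, both KO animals lay above both WT animals in 5 members and below them in 1, where 18.4% and 30.7% of tested genes did so. These shares of all genes move with the scaling. After median-of-ratios scaling the median was 0.15 for the members and 0.01 for all tested genes, 8 of 9 members and 53.4% of tested genes had a higher mean in KO, and both KO animals lay above both WT animals in 6 members and 27.3% of tested genes, and below them in 1 member and 23.6%. After quantile normalization the medians were 0.17 for the members and 0.03 for all tested genes, with a higher mean in KO for 8 of 9 members and 58.8% of tested genes. Summed over the 9 members the level was 154 FPKM in KO1 and 134 FPKM in KO2, against 124 FPKM in WT1 and 124 FPKM in WT2. The nuclear phosphatases summed to 37.9 ± 4.89 FPKM in KO and 31.3 ± 0.995 FPKM in WT, the Sprouty genes to 24.5 ± 1.07 FPKM in KO and 20.8 ± 0.860 FPKM in WT, and the Spred genes to 48.1 ± 4.66 FPKM in KO and 44.7 ± 0.568 FPKM in WT (SD, n = 2 each). The excess over WT was 20.8% for the nuclear phosphatases, 17.5% for the Sprouty genes and 7.64% for the Spred genes. Without KO1 the excess was 9.79% for the nuclear phosphatases, 13.9% for the Sprouty genes and 0.264% for the Spred genes. The Sprouty genes then lay above the nuclear phosphatases, as they did without WT1, at 21.0% against 18.2%. They lay below them without KO2, at 21.1% against 31.9%, and without WT2, at 14.2% against 23.6%. The order of these families therefore depends on the animals used. The Sprouty excess lies mainly in Spry2, since Spry1 was lower in KO and Spry4 overlapped.

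The animals labelled KO differed from each other as much as from the WT animals in several genes. KO1 was the highest of the 4 animals in 8 of 9 members, which held for 22.5% of tested genes, and the animals labelled KO stood further apart than the WT animals in 8 of 9 members. The 22.5% holds for FPKM as deposited and was not computed under another scaling. Median-of-ratios scaling divides by factors that were lowest for KO1, at 0.980 and 0.979, against 1.00 to 1.02 in the other libraries. KO1 exceeded KO2 by 0.31 for Dusp5, 0.23 for Dusp1, 0.23 for Dusp6, 0.22 for Spred1 and 0.11 for Spry2 on the log2(FPKM + 1) scale. In 4 members, Dusp5, Spry4, Spred1 and Spred2, this gap was larger than the difference between the groups. The share of all tested genes was not computed for either count of gaps, so neither is shown to be particular to the members. The libraries of KO1 also held the lowest sum of choroid plexus markers and the highest sum of neuronal markers, as given above. Sums of hippocampal, astrocyte, oligodendrocyte precursor, oligodendrocyte and microglia markers were highest in KO1 as well. The 8 markers of neighbouring neocortex or striatum summed to 33.5 FPKM in KO1, 25.7 in KO2, 25.6 in WT1 and 25.8 in WT2. Blood, meningeal fibroblast, ependymal and endothelial sums were lowest in KO1. Whether any of these take part in the gap was not tested.

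**Figure D3:**
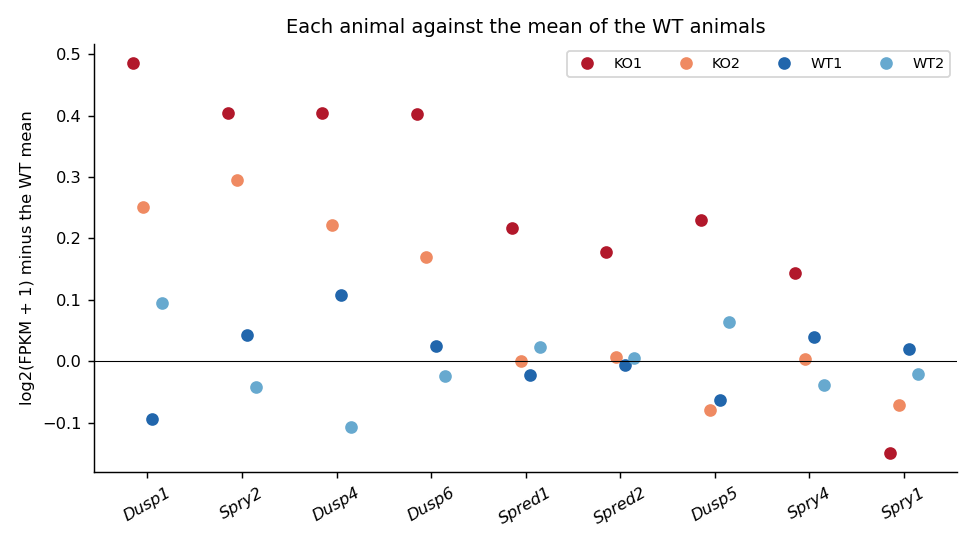
Level of each gene in each animal, as log2(FPKM + 1) minus the mean of the WT animals, with genes ordered by their fold change. KO1 stands above KO2 for every gene except Spry1, and KO2 lies among or below the WT animals for Spred1, Dusp5, Spry4 and Spry1.

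**Figure D4:**
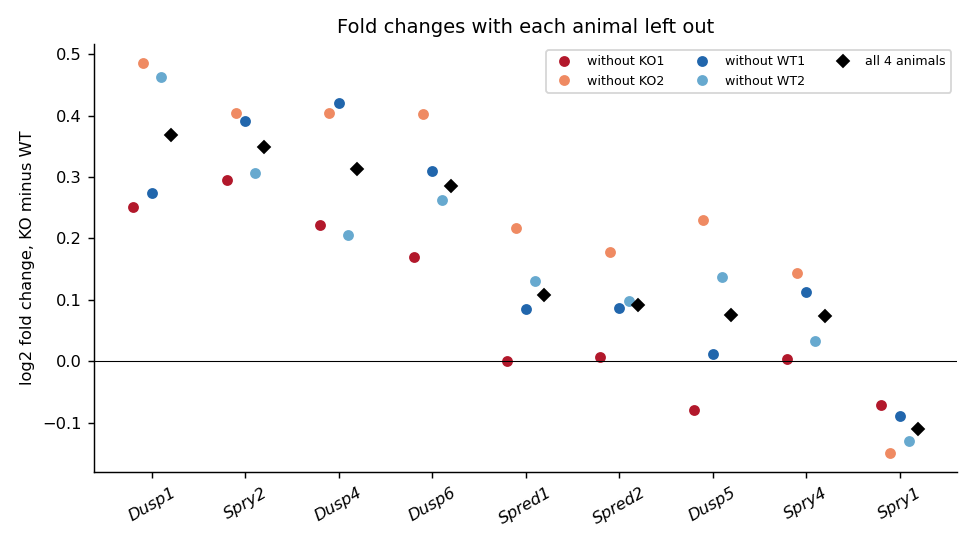
Log2 fold change of each gene, KO minus WT, with all 4 animals (diamonds) and with each animal left out (circles). Spry2 keeps 0.30 to 0.40, while Spred1 and Dusp5 are at -0.0004 and -0.08 without KO1.

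Over the 8 libraries the members with the widest range of log2(FPKM + 1) were Dusp1 at 0.71, Dusp4 at 0.57 and Dusp6 at 0.53. The tested genes whose profiles over the 8 libraries, centred on their means, were nearest to these differed from them by a small root-mean-square difference in log2(FPKM + 1). For Dusp1 these were Bmp3 and Gpr26, at 0.07 and 0.08. Bmp3 lay near the minimum of 0.5 FPKM, at 1.21 and 0.845 FPKM in KO1 and KO2 and 0.562 and 0.740 FPKM in WT1 and WT2. For Dusp4 they were Rph3a and Chgb, both at 0.05, and for Dusp6 they were Trpc5 and Ppm1l, both at 0.04. Among the members themselves Spred1 and Spred2 were the most alike, at 0.04, and Dusp1 and Spry1 the least, at 0.29. The 8 libraries come from 4 animals, so such likeness follows the order of a few animals.

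Other genes around the pathway were taken from 8 lists with 131 genes, of which 122 were tested, and 0 passed the threshold in either direction (smallest limma adjusted p = 0.1003). The other MAP kinase phosphatases, with 9 of 12 tested, had a median of 0.05 in log2 fold change, and both KO animals lay above both WT animals in 4 and below them in 0, where 18.4% and 30.7% of all tested genes did so. Those with the smallest p did not pass: Dusp3 was at 41.6 ± 2.82 FPKM in KO and 38.2 ± 1.43 FPKM in WT, the neuronal tyrosine phosphatase gene Ptprr at 5.92 ± 0.0358 and 5.40 ± 0.0017 FPKM in KO and WT, and Dusp7, a cytoplasmic relative of Dusp6, at 20.7 ± 1.69 and 19.2 ± 0.151 FPKM in KO and WT (SD, n = 2 each). Spred3, the remaining tested member of the Sprouty and Spred family, was at 11.0 ± 0.259 FPKM in KO and 11.1 ± 0.422 FPKM in WT.

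Genes that ERK activity can induce were often highest in KO1. Of 27 tested genes on this list 19 had a higher mean in KO, 10 lay above WT in both KO animals and 2 below, and KO1 was the highest animal in 17. Of all tested genes 42% had a higher mean in KO, 18.4% lay above and 30.7% below WT, and 22.5% had KO1 highest, all for FPKM as deposited. Their median log2 fold change was 0.11. The antiproliferative gene Btg2 was at 10.7 and 10.0 FPKM in KO1 and KO2, against 7.65 and 7.09 FPKM in WT1 and WT2 (limma adjusted p = 0.1003). The early response gene Ier2 was at 7.16 and 5.42 FPKM in KO1 and KO2, against 4.10 and 3.99 FPKM in WT1 and WT2, and Fos, a subunit of AP-1, at 26.9 and 20.7 FPKM in KO1 and KO2, against 17.0 and 16.5 FPKM in WT1 and WT2. None of these passed (limma adjusted p = 0.184 for Ier2 and 0.202 for Fos). The list was chosen with the earlier finding known that immediate early genes tend to be higher in these libraries labelled KO.

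For the lists of the cascade itself the same shares of all tested genes apply, 18.4% above and 30.7% below WT in both KO animals. The core and its activators, with 29 of 29 tested, had a median of 0.04 in log2 fold change, with 11 above WT in both KO animals and 5 below. Examples that did not pass were the Ras gene Hras, at 71.0 ± 0.0808 FPKM in KO and 65.1 ± 0.257 FPKM in WT, and the MEK gene Map2k1, at 114 ± 1.91 FPKM in KO and 104 ± 1.87 FPKM in WT. Of the 12 restraining genes 2 lay above and 2 below WT (median -0.0031). Those with the smallest p did not pass. Rasa3 was at 16.7 ± 1.10 FPKM in KO and 15.4 ± 0.476 FPKM in WT, and Erf at 14.5 ± 0.680 and 13.7 ± 0.127 FPKM in KO and WT. Cic, a repressor that ERK inactivates, was lower in KO, at 32.3 ± 0.638 FPKM against 33.9 ± 1.36 FPKM in WT (SD, n = 2 each). Of 18 genes for substrate kinases and scaffolds 1 lay above and 5 below (median -0.0093), and the scaffold gene Iqgap1 was at 3.24 ± 0.277 FPKM in KO and 4.91 ± 0.610 FPKM in WT (limma adjusted p = 0.153).

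Growth factor receptors, with 18 of 20 tested, had a median of -0.03 in log2 fold change, with 0 above WT in both KO animals and 8 below, against 18.4% and 30.7% of all tested genes. Fgfr2, a fibroblast growth factor receptor, was at 14.9 and 16.7 FPKM in KO1 and KO2, against 19.9 and 19.7 FPKM in WT1 and WT2 (limma adjusted p = 0.147). Ntrk2, the receptor of BDNF, was at 85.1 ± 0.203 FPKM in KO and 87.9 ± 0.592 FPKM in WT. Ntrk3 had a higher mean in KO, at 24.9 ± 1.10 FPKM against 23.5 ± 0.932 FPKM in WT, and its groups overlapped (limma adjusted p = 0.517). Of 8 genes for Pyk2 and its kin 3 lay above WT in both KO animals and 1 below. Besides Ptk2b these were led by Pxn, encoding the adhesion adaptor paxillin, at 7.34 ± 0.830 FPKM in KO and 10.0 ± 0.361 FPKM in WT, and the Src family kinase gene Fyn, at 60.9 ± 2.20 FPKM in KO and 53.0 ± 0.236 FPKM in WT (limma adjusted p = 0.148 and 0.150). The 11 choroid plexus markers lay below WT in both KO animals, and the part of such tissue in these lists was not tested.

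**Figure D5:**
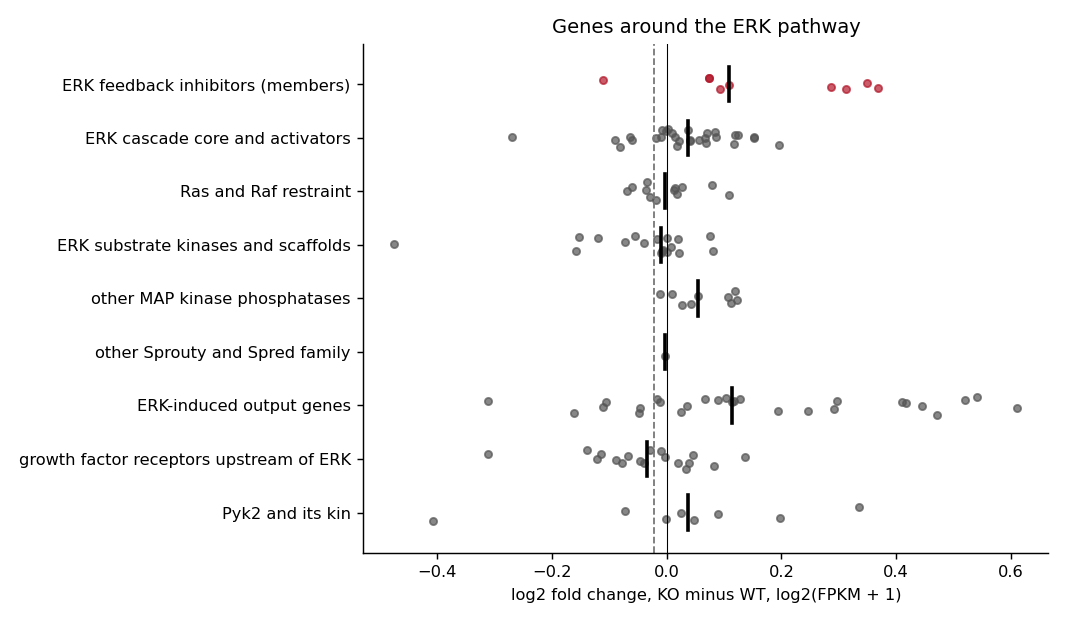
Log2 fold change, KO minus WT on the log2(FPKM + 1) scale, of the members (red) and of the tested genes of 8 lists around the ERK pathway (grey). Black bars are list medians and the dashed line is the median of all tested genes at -0.02. The medians of the members and of the ERK-induced output genes are both at 0.11, and those of the other lists lie between -0.03 and 0.05.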

How the data were processed

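Gene tables of 8 hippocampal libraries were used, 1 per technical replicate. The authors deposited FPKM with confidence limits and a status for every gene, as the columns are named per the file headers. mm10, Bowtie (version 1) and HISAT are named in the submitters' processing notes. Which program made the FPKM, and how libraries were scaled, is not given in the sources used here. Because FPKM are relative to the library total, a shift in a few abundant genes moves all others. The fragment numbers implied by the intervals were whole, within 0.05, for 43.1% to 45.6% of low genes, so counts were not recovered.

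Rows of the same gene were summed, and the 12 values whose status was not OK were set to missing. The 2 technical replicates of an animal were averaged, and 16667 genes reached 0.5 FPKM in 2 animals or more. Values were tested as log2(FPKM + 1), which understates changes of low genes, with limma 3.58.1 in R 4.3.3 (trended variance, Benjamini-Hochberg over all tested genes, threshold 0.05). The procedure was tested on simulated data with independent noise and changes larger than those of the members. That run therefore does not bear on changes of the members' size. Members and lists were chosen with earlier results of these data known. The genes named from each list were those past the threshold or otherwise came from the up to 3 with the smallest p. Not all of these 3 were named for every list. Annotation is GENCODE M21, on the same coordinates as the tables. Alternatives were other scalings, minimums, pseudocounts and variance models, single technical replicates, libraries as units, a replicate block, and each animal left out, and leaving out the first library of KO1 was added after seeing the data.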

Additional observations from a re-analysis of the deposited data

How the results depend on the processing

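No alternative among the 16 tried called a member except the use of all 8 libraries as units with the animal as a random block. It called 2, Dusp6 (log2 fold change 0.29, limma adjusted p = 0.0459) and Spry2 (0.35, limma adjusted p = 0.00314), and also Ptk2b (0.335, limma adjusted p = 0.00633). It called 1086 of 16660 tested genes, 275 of them higher in KO, so such calls were not particular to the members. Technical replicates count as units in that fit, so its p-values rest on more units than the 2 animals per group. The lowest adjusted p of each range below comes from it. Over all alternatives the adjusted p was 0.0507 to 0.551 for Dusp1, 0.0544 to 0.698 for Dusp4, 0.0459 to 0.645 for Dusp6 and 0.00314 to 0.476 for Spry2. Directions were kept in 141 of 144 member values. The exceptions were Dusp5 at -0.0016 with the first technical library only, and, without KO1, Dusp5 at -0.0801 and Spred1 at -0.0004. Leaving out each animal gave log2 fold changes of 0.25 to 0.49 for Dusp1, 0.21 to 0.42 for Dusp4, 0.17 to 0.40 for Dusp6, 0.30 to 0.40 for Spry2, -0.15 to -0.07 for Spry1, -0.0801 to 0.23 for Dusp5, 0.0035 to 0.14 for Spry4, -0.0004 to 0.22 for Spred1, 0.0065 to 0.18 for Spred2 and 0.0065 to 0.23 for the median of the members. Among Dusp1, Dusp4, Dusp6 and Spry2, Dusp6 at 0.17 without KO1 and Dusp4 at 0.21 without WT2 are over 1.5 times below their values with all animals. Other members fell further in proportion without KO1, Spred2 from 0.0922 to 0.0065 and Spry4 from 0.0732 to 0.0035.

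The count of all called genes, 9, was 0 with no filter on low values (3741 at an unadjusted p under 0.05), 14 and 17 with pseudocounts of 0.1 and 0.5, 19 and 35 with the first or second technical library only, 1 with no trend in the prior variance, 20 without the first library of KO1 and 0 to 224 with each animal left out, where a lone animal was taken to vary as the other group does. The cause was not tested. The replicate block called 184 genes and 0 members (Spry2 log2 fold change 0.35, adjusted p = 0.0773). Same-numbered animals share only a number, and their deviations from the group means correlated at 0.107 across 16667 genes.

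The intervals belong to single libraries, and which errors they cover is not given in the sources used here. They cannot be taken as the spread between animals, and 2 animals per group limit every comparison.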
